A study of Mus musculus with 12 samples.

Results

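The CpG cytosines described here lay far from genes: they were outside every annotated gene of any type, coding or not, and more than 5000 bp from the start of any protein-coding gene, on the autosomes. A cytosine was included when it had at least 10 reads in all 3 samples of a group, and each strand of a CpG was counted on its own. The rule gave 73244 of the 425574 cytosines of the whole series that met the same read minimum in at least 1 group. By group it gave 10903 cytosines in DMSO, 18755 in DBP, 63389 in DBP with the chemopreventive agent and 43615 in DBP with BR extract. The groups were compared over the 6195 cytosines that had 10 reads in all 12 samples, out of 38085 such cytosines in the series.

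The samples were oral soft tissue of female B6C3F1/J mice, 3 mice in each of 4 groups. DMSO mice received the vehicle and DBP mice received dibenzo[a,l]pyrene, a combustion product that forms DNA adducts, at 24 nmol given 3 times per week for 5 weeks onto the oral cavity. The DBP with agent group (DBP + agent) and the DBP with BR extract group (DBP + agent BR) received DBP plus a chemopreventive treatment, which the labels name no further. All 4 groups share the strain, sex, age at the start of 8 weeks and the vehicle, and in the study's methods tissue was taken 48 h after the last dose. Buccal mucosa, floor of the mouth and soft tissue of the hard palate were combined before DNA was isolated, so each percentage is a mean over epithelium, stroma and any other cells in that tissue. Methylation was measured by ERRBS (enhanced reduced representation bisulfite sequencing), in which MspI cuts at CCGG, bisulfite converts unmethylated cytosines, and fragments of 70 to 320 bp are read over 50 bases.

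Most of the mammalian genome lies outside promoters and is methylated at its CpGs, a state kept through cell division by the maintenance methyltransferase Dnmt1. CpG-dense stretches are the main exception and stay unmethylated also where no gene start is annotated, while transposable elements are usually held methylated. CpGs of intermediate level often mark distal regulatory elements, alleles that differ, or mixtures of cells. Ribosomal RNA genes are a special case, present in many copies of which only some are active and unmethylated.

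The sequences show what kinds of DNA this class holds. The first 5 are the named regions with the most cytosines, the lowest, the highest and the most intermediate methylation, and the greatest depth, on the plus strand of mm9 with every CG in capitals. The stretch near Arhgap32 holds 17 CG in 84 bases and that of the ribosomal interval 32 in 232. The others hold 8 in 85, 7 in 91 and 6 in 88, in the order shown. The cytosines of all 5 regions lay in CpG-dense windows, as defined further on.
ribosomal interval, chr17:39981424-39981655: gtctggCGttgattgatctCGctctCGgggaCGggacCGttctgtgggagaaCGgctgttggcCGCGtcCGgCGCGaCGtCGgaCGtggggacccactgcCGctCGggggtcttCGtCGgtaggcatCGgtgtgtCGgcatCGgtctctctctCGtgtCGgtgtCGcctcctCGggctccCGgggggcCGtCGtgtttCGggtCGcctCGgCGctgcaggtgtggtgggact
Arhgap32 region, chr9:31839967-31840050: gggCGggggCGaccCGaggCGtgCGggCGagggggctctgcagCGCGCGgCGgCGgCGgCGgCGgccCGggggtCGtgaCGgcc
Col12a1 region, chr9:79190125-79190209: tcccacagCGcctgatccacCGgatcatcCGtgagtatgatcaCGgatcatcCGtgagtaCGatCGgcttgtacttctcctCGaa
Gm6843 region, chr10:95143443-95143533: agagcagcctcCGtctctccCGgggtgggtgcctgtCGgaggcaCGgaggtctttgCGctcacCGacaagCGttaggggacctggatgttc
deepest region, chr14:82483731-82483818: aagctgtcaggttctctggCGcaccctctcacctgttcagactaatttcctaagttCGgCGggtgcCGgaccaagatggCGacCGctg
The last 3 are the called CpGs with the smallest p-value in each comparison, with only the called CG in capitals and 40 bases on either side.
Bahcc1 site, chr11:120082629-120082710: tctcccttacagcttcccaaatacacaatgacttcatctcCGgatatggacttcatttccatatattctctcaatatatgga
3930402G23Rik site, chr8:10854170-10854251: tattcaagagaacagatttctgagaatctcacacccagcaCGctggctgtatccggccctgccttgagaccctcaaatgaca
Ifngr1 site, chr10:19296227-19296308: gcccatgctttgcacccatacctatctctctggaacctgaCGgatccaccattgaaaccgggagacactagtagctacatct

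Depth separated the groups before any result. The DMSO and DBP libraries held 3287367 to 7974299 CpG calls each, and the libraries of the other 2 groups held 16908728 to 78889043. Over the 6195 shared cytosines the median depth was 17 to 32 reads in the first 6 libraries and 37 to 114 in the other 6. Sample 1 of DBP + agent BR was the deepest library, yet its median depth at these cytosines was only 37 reads. Its methylation values correlated with those of the other libraries at r = 0.873 to 0.903 across cytosines, while the 55 pairs without it gave 0.896 to 0.952. Depth and chemopreventive treatment cannot be told apart in any comparison with those 2 groups.

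Far intergenic CpGs were mostly methylated, and the mean levels of the 4 groups differed by less than the spread between mice. The mean over the 6195 cytosines was 60.1% ± 0.413 (SD, n = 3) in DMSO, 60.5% ± 0.582 in DBP, 60.9% ± 0.818 in DBP + agent and 60.2% ± 0.205 in DBP + agent BR. The 12 mice lay between 59.8% and 61.8%, and all 4 groups overlapped. DBP exceeded DMSO by 0.395 percentage points (two-sided exact permutation p = 0.3, adjusted p = 0.6 over 3 comparisons). DBP + agent exceeded DBP by 0.326 points (exact permutation p = 0.7, adjusted p = 0.7), and DBP + agent BR was below DBP, with a difference of -0.362 points (exact permutation p = 0.4, adjusted p = 0.6). With 3 mice per group this exact permutation test cannot go below p = 0.1. An exact permutation test over all 4 groups gave p = 0.38. Without sample 1 of DBP + agent BR that p was 0.304 and the last difference was -0.453 points.

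**Figure D1:**
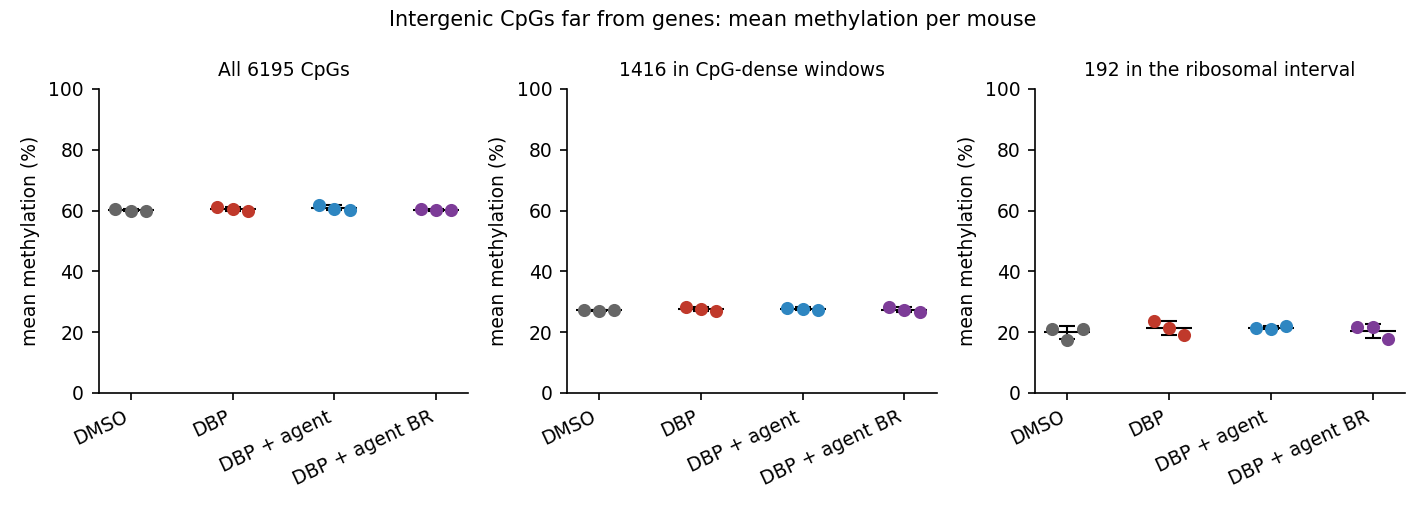
Mean methylation in percent of the far intergenic CpGs in each mouse (points), by group, with the group mean and SD (n = 3) as bars, for all 6195 cytosines, the 1416 in CpG-dense windows and the 192 of the ribosomal interval. The groups overlap in each panel, at about 60.4%, 27.5% and 20.7% on average over the 12 mice.

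The weighting of cytosines mattered more than the treatment. When reads were summed over the same cytosines, so that deep ones count more, the level was 49.6% ± 2.19 (SD, n = 3) in DMSO, 47.6% ± 1.22 in DBP, 43.7% ± 1.94 in DBP + agent and 45.0% ± 2.26 in DBP + agent BR (exact permutation test over 4 groups, p = 0.0286). A single stretch of chromosome 17, described further on, supplied 26.6% to 54.4% of these reads. Without it the 4 levels were 63.0% ± 0.995, 64.5% ± 0.203, 61.3% ± 0.219 and 64.3% ± 7.43 (exact permutation p = 0.832), and sample 1 of DBP + agent BR alone stood at 72.8%. Samples 2 and 3 of that group had 59.4% and 60.6%, and the DBP + agent mice 61.1% to 61.5%. These lay below the DMSO and DBP mice, at 62.3% to 64.7%.

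The class was split between unmethylated and highly methylated CpGs. Averaged over the 12 mice, 1248 of the 6195 cytosines were below 20%, 2198 lay between 20% and 80%, and 2749 were above 80%. Of these, 924 were below 20% in every mouse and 1055 were above 80% in every mouse. The low cytosines had a median of 15 CpGs within 100 bases on either side and a GC content of 63.2%, against 5 CpGs and 51.7% for the high ones. The low and high cytosines lay at a median of 36209.5 bp and 70536 bp from the nearest coding start.

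CpG density was the feature that went with the lowest levels. A window was called CpG-dense when the 100 bases on either side had a GC content of at least 50% and an observed over expected CpG ratio of at least 0.6. The 1416 cytosines in dense windows averaged 27.5% ± 0.52 (SD over 12 mice) and the other 4779 averaged 70.2% ± 0.621. The difference of -42.7 points had the same sign in 12 of 12 mice (exact sign-flip test over mice, two-sided, p = 0.000488, adjusted p = 0.000488 over 5 contrasts, the smallest that 12 mice can give). These sign-flip tests ask whether a difference recurs in every mouse, and the mice share the same loci. By CpG number the mean fell from 77.6% at 1 to 2 CpGs per window, through 68.7% at 5 to 7, to 9.26% at 17 or more.

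**Figure D2:**
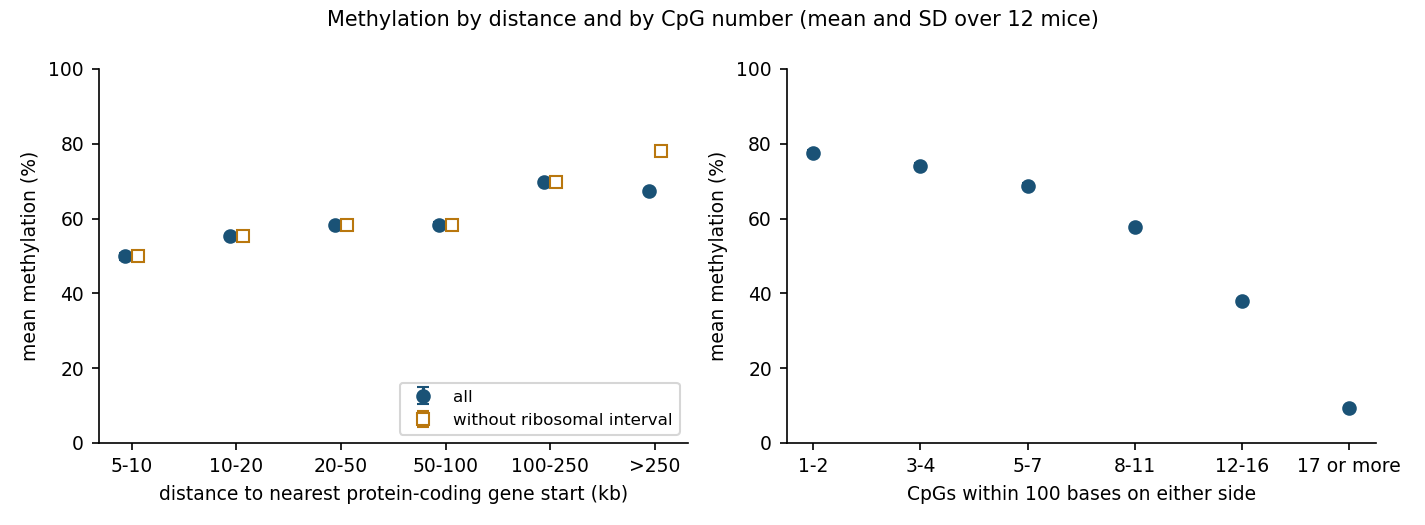
Mean methylation in percent (points, with the SD over 12 mice as bars, mostly smaller than the points) by distance to the nearest protein-coding gene start in kb, with and without the ribosomal interval, and by the number of CpGs within 100 bases on either side. Levels run from 49.9% nearest to genes to 78.1% beyond 250 kb without the ribosomal interval, and from 77.6% to 9.26% with rising CpG number.

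Distance from genes also went with the level. Cytosines 5 to 20 kb from a coding start averaged 53.1% ± 0.66 (SD over 12 mice, 1582 cytosines) and those over 100 kb away 68.6% ± 0.549 (2079 cytosines). The difference of -15.5 points was found in 12 of 12 mice (exact sign-flip p = 0.000488, adjusted p = 0.000488). Summed reads turned this contrast to 8.49 points (exact sign-flip p = 0.000488), and the ribosomal interval, which lies over 250 kb from any coding start, took the share of reads given above. With that interval left out, CpG-dense cytosines averaged 21.4% at 5 to 20 kb and 53.5% beyond 100 kb, and outside dense windows the levels were 63.9% and 76.3% (both exact sign-flip p = 0.000488 over 12 mice, contrasts added after seeing the data).

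Repeated sequence was highly methylated. The 24 bases centred on the CpG occurred at least 10 times in the reference for 369 cytosines, which averaged 84.9% ± 0.709 (SD over 12 mice), against 58.9% ± 0.586 for the other 5826. The difference of 26.1 points held in 12 of 12 mice (exact sign-flip p = 0.000488, adjusted p = 0.000488). Outside CpG-dense windows, 277 such cytosines averaged 85.2% and the remaining 4502 averaged 69.3%. Reads from other copies can be placed at such a cytosine, so each of these levels may be a mean over copies.

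Against the other parts of the genome, far intergenic CpGs resembled introns more than promoters. Intronic cytosines over 5000 bp from a start averaged 64.2% ± 0.654 (SD over 12 mice, 5414 cytosines) and promoter cytosines 7.46% ± 0.39 (17070 cytosines). The far intergenic level was below the intronic one, with a difference of -3.78 points, and 53.0 points above the promoter one, each in 12 of 12 mice (exact sign-flip p = 0.000488, adjusted p = 0.000488). Without the ribosomal interval the difference from introns was -2.51 points. It went in opposite directions by density: CpG-dense cytosines without the interval were 5.78 points above CpG-dense intronic ones, and the remaining cytosines differed by -2.02 points (both exact sign-flip p = 0.000488). Exact permutation tests of whether each of these 5 contrasts differed between the 4 groups gave p between 0.2 and 0.884.

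The ribosomal interval stood out by its cytosine number and depth. It is placed at chr17:39979959-39984913 of mm9, just before the pseudogene AY036118, a locus that RefSeq annotates beside an 18S ribosomal RNA related sequence, and it is called ribosomal here only by that position. It held 192 of the 6195 cytosines, of which 123 averaged below 20% and 0 above 80%. Their mean was 19.9% ± 2.14 (SD, n = 3) in DMSO, 21.3% ± 2.41 in DBP, 21.4% ± 0.45 in DBP + agent and 20.3% ± 2.24 in DBP + agent BR (exact permutation test over 4 groups, p = 0.706). The reference holds 1 to 5 copies of the 24 bases at these cytosines, and the number of copies in these mice was not measured.

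Joining cytosines at most 100 bp apart gave 2994 regions, of which 84 held 6 or more cytosines. Among these 84, 62 averaged below 20%, 9 above 80% and 13 in between, while over all 2994 regions the median was 79.997%. Of the 84, 12 were pieces of the ribosomal interval. A region with many cytosines on short reads is rich in CpGs, so this contrast is not separate from that by density. The 3 lowest of the 84 lay at chr9:31839987-31840030, whose nearest coding start is Arhgap32, at chr11:106874048-106874086 near Kpna2 (a nuclear import receptor) and at chr15:80541909-80541942 near Fam83f. No mouse exceeded 0.147% in the first, 0.521% in the next or 0.538% in the last. Outside the ribosomal interval the region with the most cytosines, 18 of them at chr5:52505270-52505446 near the helicase gene Dhx15, averaged 3.16% and ranged from 0.553% to 7.93%.

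The 3 highest of the 84 regions had SDs over 12 mice of 1.32 to 2.94 points, and the 3 lowest 0.0477 to 0.219. The lowest were picked for means of 0.0198% to 0.119%, which leave little room for spread. These SDs therefore do not compare how stable the 2 kinds of region are between mice. The highest lay at chr9:79190145-79190189, at 376449 bp from the start of Col12a1, a collagen gene, with 94.6% to 100% in the 12 mice, and at chr12:55723687-55723729 near 1110002B05Rik, with 92.0% to 100%. The one at chr6:56967131-56967173 near the vomeronasal receptor gene Vmn1r7 ranged from 91.7% to 100%. The 24 bases at single cytosines occurred up to 87 times in the reference there, and up to 6 times near 1110002B05Rik. The deepest region, chr14:82483751-82483798, carried 773 to 60738 reads at single cytosines and was methylated to between 90.7% and 92.5% in the 12 mice. The 3 DBP + agent BR mice, at 92.3%, 92.4% and 92.5%, lay above the other 9, which ended at 91.9%. How often 1 group lies apart in this way over all regions was not counted. The 24 bases at the cytosines of this deepest region occurred up to 5468 times in the reference, so its level may be a mean over copies. The second deepest, at chr4:72204459-72204502 near Aldoart1, stood at 89.1% to 91.3%. The 24 bases at its cytosines occurred 3 to 2512 times, so this level too may be a mean over copies.

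The 3 regions nearest to 50% had SDs over 12 mice of 6.7 to 13.96 points. At chr10:95143463-95143513, 7378 bp from Gm6843, the DMSO mice had 67.9%, 27.2% and 68.7%, the DBP mice 41.5%, 66.0% and 47.1%, the DBP + agent mice 53.7%, 72.7% and 50.3%, and the DBP + agent BR mice 64.1%, 39.5% and 55.9%. Every group overlapped every other there. The region at chr5:113054967-113055101 near Sez6l, a gene of neuronal membranes, ranged from 48.9% to 71.1%, and that at chr15:82037892-82037937 from 27.8% to 47.0%. Tnfrsf13c had the nearest coding start to the latter, at 16853 bp, and Srebf2 was the closest gene, at 2086 bp. The cytosine farthest from any gene, chr14:81577548, lay 1154881 bp from the nearest gene, Olfm4, and was read as 0.0% in 8 mice and between 1.79% and 11.5% in the other 4.

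**Figure D3:**
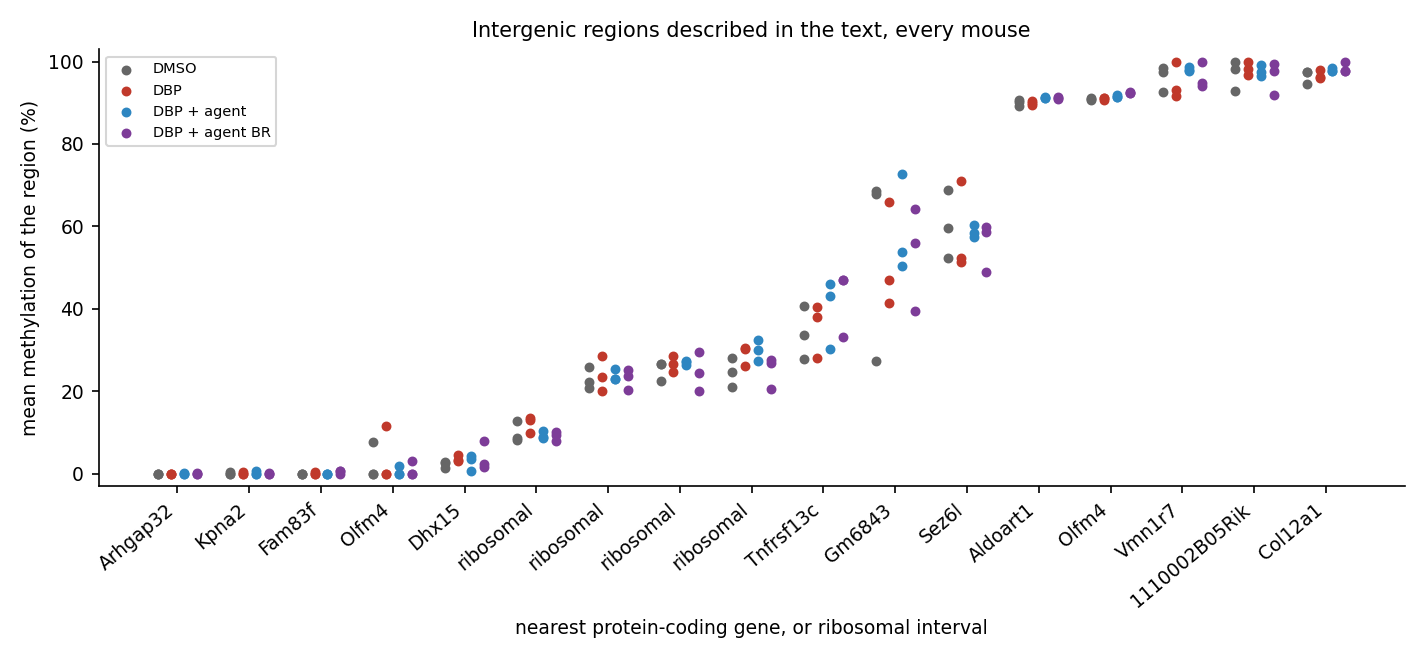
Mean methylation in percent of each named region or cytosine (columns, by nearest protein-coding gene or as ribosomal interval) in every mouse (points, coloured by group). Regions near 0% or above 89% stay near that level in all 12 mice, and the region near Gm6843 spreads from 27.2% to 72.7% within and across groups.

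By nearest coding gene, 119 regions lay next to 71 developmental transcription factors, genes often flanked by long CpG-rich valleys. Their median was 52.0%, against 79.997% over all regions, and 28.6% of them were below 20%, against 11.1% of all, while 27.7% were above 80%, against 49.97% of all. Low examples were regions at chr17:48111148-48111170 near Foxp4, at 0.0% to 0.397% in the 12 mice, chr11:18926658-18926682 near Meis1, at 0.0% to 5.0%, and chr1:4561837-4561885 near Sox17, at 1.43% to 7.79%, and high ones were at chr3:154021604-154021638 near Lhx8, at 79.6% to 100%, and chr13:71958102-71958128 near Irx1, at 80.4% to 97.9%. By contrast 39 regions next to olfactory and vomeronasal receptor genes, which lie in large CpG-poor clusters, had a median of 87.8%, and 25 next to secreted signalling ligands had 68.0%. Dense windows made up 24.4%, 10.3% and 4.0% of the regions of these 3 lists and 10.7% of all regions.

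Of 3 imprinting control windows looked at, only the one upstream of H19 held a member. This minus strand cytosine at chr7:149767292 lies 3244 bp before the H19 start, in the element that is methylated on the paternal allele. It read 75.0% of 24, 78.9% of 19 and 63.0% of 27 reads in the DBP + agent mice, and 40.6% of 32 and 61.3% of 31 in samples 2 and 3 of DBP + agent BR. Fewer than 10 reads covered it in 6 of the 7 other mice, and the seventh, a DBP mouse, had 60% of 10. The windows at Meg3 and Rasgrf1 held 0 members.

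At an equal number of reads, the share of intermediate calls differed between groups. When each cytosine was thinned to 10 reads, the expected share with 2 to 8 methylated reads was 44.0% ± 0.742 (SD, n = 3) in DMSO, 44.6% ± 0.206 in DBP, 41.3% ± 0.556 in DBP + agent and 40.4% ± 1.04 in DBP + agent BR (exact permutation test over 4 groups, p = 0.000844). All 6 mice of the deeper groups lay below the 6 DMSO and DBP mice. The unthinned shares between 20% and 80% were 36.2%, 36.7%, 34.5% and 34.0% (exact permutation p = 0.00292). The share with 9 or 10 methylated reads was 36.1%, 36.0%, 38.5% and 38.6% (exact permutation p = 0.00649), and that with 0 or 1 was 19.97%, 19.3%, 20.1% and 21.0% (exact permutation p = 0.0406). Without sample 1 of DBP + agent BR, over 8414 cytosines, the intermediate shares were 43.9%, 44.5%, 40.8% and 40.3% (exact permutation p = 0.00325). DBP and DMSO differed by 0.637 points in the intermediate share (exact permutation p = 0.3).

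The deeper groups also had lower mean shares in other classes of the genome. The thinned intermediate share of intronic cytosines was 46.8%, 46.5%, 42.9% and 41.9% in the 4 groups (exact permutation p = 0.0037), and that of exonic cytosines 34.5%, 34.6%, 32.3% and 31.9% (exact permutation p = 0.00545). That of promoter cytosines was 15.2%, 15.2%, 14.5% and 13.4% (exact permutation p = 0.124), and the DBP + agent mice, at 12.9% to 16.5%, spanned the DMSO and DBP values there. With at least 20 reads in every sample and thinning to 20, on 1351 cytosines, the 4 shares were 40.3%, 40.9%, 39.5% and 38.8% (exact permutation p = 0.14). Thinning equalises reads, not independent molecules. At full depth, the spread between mice of a group as a ratio to counting error averaged 1.8, 1.85, 6.53 and 7.44 in the 4 groups. These ratios are over far intergenic cytosines of intermediate level. The part of library depth or of duplicate reads in this pattern was not tested.

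**Figure D4:**
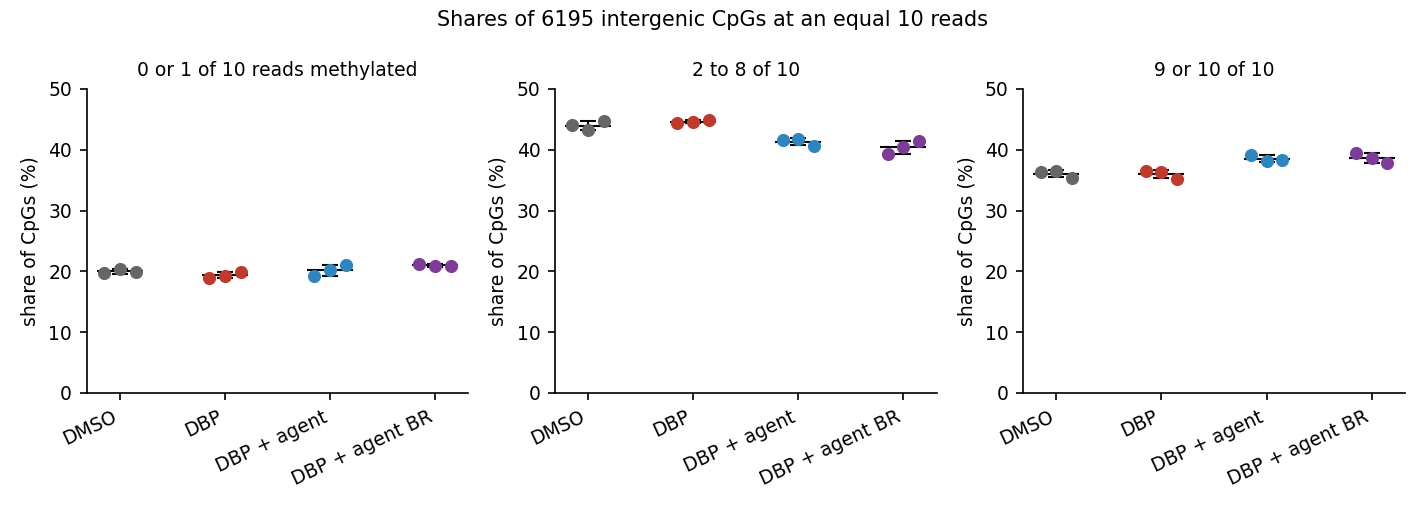
Expected share in percent of the 6195 far intergenic cytosines with 0 or 1, 2 to 8, and 9 or 10 methylated reads at 10 reads, in each mouse (points), with the group mean and SD (n = 3). The DMSO and DBP mice lie between 43.2% and 44.9% in the middle panel and the other 6 mice between 39.3% and 41.7%.

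Single CpGs were compared on merged strands, with a likelihood ratio test in a logistic regression on group, and a CpG was called at q below 0.01 with a difference of pooled percentages over 25 points. Between DBP and DMSO, 4 of 8365 far intergenic CpGs were called (0.0478%), 3 higher and 1 lower in DBP, while 0.0578% of all 53618 CpGs tested were called, 0.0336% higher and 0.0242% lower. The share rests on 4 calls and is near that of all CpGs. It is below the 0.166% of introns (13 of 7812) and above the 0.025% of promoters (6 of 23965). Leaving out 1 mouse moved the count between 1 and 18: it was 18 without DMSO sample 1 (13 higher and 5 lower), 1 without DMSO sample 2 (higher), and 2 without DBP sample 1 (both lower). Without DBP samples 2 and 3 it was 9 and 8. Over all CpGs the count without 1 mouse lay between 13 and 72, with 72 of 54904 called without DMSO sample 1. Each of the 4 separated the 3 DBP from the 3 DMSO mice, and 82.4% of the 8365 differed by less than 10 points. This test treats reads of different mice as exchangeable. edgeR's negative binomial model, in which mice of a group may vary, called 0 of the 8365 and 0 of all 53618 CpGs at the same limits. Of the 8365, 511 had an unadjusted edgeR p below 0.05, a limit that some CpGs pass without any difference. The share at that unadjusted limit over all CpGs tested was not computed in any comparison.

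The 4 called CpGs took different levels in the mice that also received an agent, and those levels were not tested against DMSO. At chr7:152014445, 9543 bp before Fgf3, a fibroblast growth factor gene, the DMSO mice averaged 40.05% ± 13.5 (SD, n = 3) and the DBP mice 75.4% ± 10.5 (q = 0.00703). The DBP + agent mice had 51.0% of 49, 48.8% of 86 and 29.3% of 41 reads, within the DMSO range or just below it, and the DBP + agent BR mice had 88.2% of 17, 64.4% of 45 and 71.3% of 108 reads, overlapping the DBP mice. The 3 neighbouring CpGs tested within 100 bp were also higher in DBP, by 10.6 to 22.2 points, and none of them was called.

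At chr11:120082669, 11592 bp before Bahcc1, a chromatin protein gene, the DMSO mice had 35.3%, 53.8% and 38.5% and the DBP mice 91.4%, 67.9% and 71.8% (q = 0.003). The DBP + agent mice, at 55.0%, 47.9% and 93.5%, and the DBP + agent BR mice, at 66.7%, 59.6% and 44.1%, spanned both ranges. The first of these BR values rested on 6 reads. At chr5:144049680, 17979 bp before the zinc finger gene Zfp316, the DMSO mice had 16.7%, 35.3% and 35.5% and the DBP mice 6.45%, 6.45% and 4.76% (q = 0.00508), and the DBP + agent mice had 6.25%, 12.2% and 0.0%, and samples 2 and 3 of DBP + agent BR 18.0% of 50 and 0.0% of 62 reads. At chr5:141025267, 15758 bp beyond the start of Grifin, a galectin related lens gene, the DMSO mice had 51.5%, 43.1% and 68.8% and the DBP mice 80.6%, 71.4% and 85.7% (q = 0.00692), and the DBP + agent mice had 72.9%, 59.1% and 60%. Samples 2 and 3 of DBP + agent BR had 55.6% of 72 and 32.9% of 82 reads there, below every DBP mouse, and sample 1 had fewer than 5 reads on either strand at both CpGs. Of the neighbours tested within 100 bp near Zfp316, 4 of 5 had the direction of the called CpG. The 1 near Grifin had the other (-2.43 points), and Bahcc1 had 0. In 6 fits without 1 mouse, the CpGs near Fgf3, Bahcc1 and Grifin stayed called in 3 each and that near Zfp316 in 1. These 4 CpGs were chosen by their difference between DBP and DMSO, so their values in those 2 groups are a description.

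In the comparison of DBP + agent with DBP, 194 of 17753 far intergenic CpGs were called (1.09%), 81 higher and 113 lower with the agent. Over all 127381 CpGs tested the share was 0.754% (0.345% higher and 0.408% lower), over introns 1.1% and over promoters 0.376%. In 130 of the 194 the groups did not overlap, and the median size of the difference was 28.2 points. Called CpGs were picked for a large difference, so this separation is a description, and its share over all CpGs was not computed. edgeR's model gave 978 of the 17753 an unadjusted p below 0.05. It called 3 of all 127381 CpGs tested, of which 1 was far intergenic.

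That CpG, chr8:10854210 at 74247 bp from 3930402G23Rik, was the one called by both. It was methylated in all 51, 66 and 78 reads of the DBP + agent mice, at 100% each, and in 61.1%, 74.1% and 77.8% of 18, 27 and 27 reads of the DBP mice (q = 6.91e-16 by logistic regression, q = 0.00662 by edgeR). The DMSO mice lay at 87.0%, 71.4% and 63.6%, near the DBP mice. The DBP + agent BR mice had 97.6%, 84.1% and 71.6%.

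The next CpGs by p-value were of larger difference and wider spread. At chr6:30419709 and chr6:30419721, 40 kb from Tmem209, the DBP mice had 76.9%, 90.0% and 78.9% at the first and the DBP + agent mice 61.5%, 31.5% and 29.1%, a pooled difference of -42.3 points (q = 1.08e-14), and the second followed it on the same reads with -38.2 points. At chr4:140416383 near Padi1, a peptidylarginine deiminase of epidermis, the DBP mice had 11.1%, 37.5% and 41.2% and the DBP + agent mice 81.6%, 47.1% and 100% (q = 2.56e-12). The CpG near BC107364 averaged 44.4% ± 9.62 (SD, n = 3) in DBP and 10.2% ± 9.05 with the agent, and that near Ier5l 97.2% ± 4.81 and 59.3% ± 21.3. None of these 5 passed in edgeR (q of 0.275 to 0.576).

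In the comparison of DBP + agent BR with DBP, 231 of 14470 far intergenic CpGs were called (1.6%), 78 higher and 153 lower with BR extract. Over all 104443 CpGs tested the share was 0.999% (0.341% higher and 0.658% lower), over introns 1.78% and over promoters 0.405%. The groups did not overlap in 137 of the 231, again among CpGs picked for a large difference. The filter on the deepest cytosines removed most of the ribosomal interval before testing: 64, 39 and 38 of its CpGs were tested in the 3 comparisons, and 0 were called. Without sample 1 of DBP + agent BR the regression called 440 of 17462 far intergenic CpGs and 2048 of all 124398. edgeR's model called 0 of the 14470 and 0 of all 104443, and 972 of the 14470 had an unadjusted p below 0.05.

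Of the 6 CpGs with the smallest p in this comparison, only 2 had groups that did not overlap. Their regression q-values rest on scaled counts, not on the reads printed, and leave out the spread between mice. As a ratio to counting error, that spread averaged 5.82 in DBP + agent BR and 1.59 in DBP. These ratios are over far intergenic CpGs of intermediate level, at median depths of 60 and 21 reads. At chr13:112301353, 21034 bp before Gpbp1, a gene for a GC-rich promoter binding protein, the DBP + agent BR mice had 0.0% of 16, 10.4% of 144 and 8.72% of 172 reads and the DBP mice 40%, 39.5% and 64.5% (q = 1.92e-28 by logistic regression, q = 0.186 by edgeR). At chr11:63924715 near Cox10, a gene of haem synthesis for cytochrome oxidase, they had 66.0%, 17.7% and 58.5% against 88.4%, 77.8% and 85.4%.

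The other 4 rested on some of the 3 mice. At chr10:19296267 near the interferon gamma receptor gene Ifngr1, sample 1 was at 100%, as were 2 of the DBP mice, and samples 2 and 3 were at 54.1% and 76.2%. Near Gm10941 samples 2 and 3 had 3.45% and 4.39% and sample 1 had 60.7%, above the highest DBP mouse at 57.6%. Near Ythdc1, a reader of RNA methylation, the 3 mice had 36.0%, 100% and 78.2%, around the DBP range of 40% to 76.7%.

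At chr19:14073134, 79702 bp from the olfactory receptor gene Olfr1505, the call came from 1 library. Sample 1 of DBP + agent BR was methylated in 85.05% of 107 reads (95% Wilson interval 77.1% to 90.6%, counting error only), and the other 11 mice read 0.0% of 6 to 69 reads. The pooled difference of 59.5 points became 0.0 without that sample, and the 24 bases at this CpG occur 25 times in the reference.

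**Figure D5:**
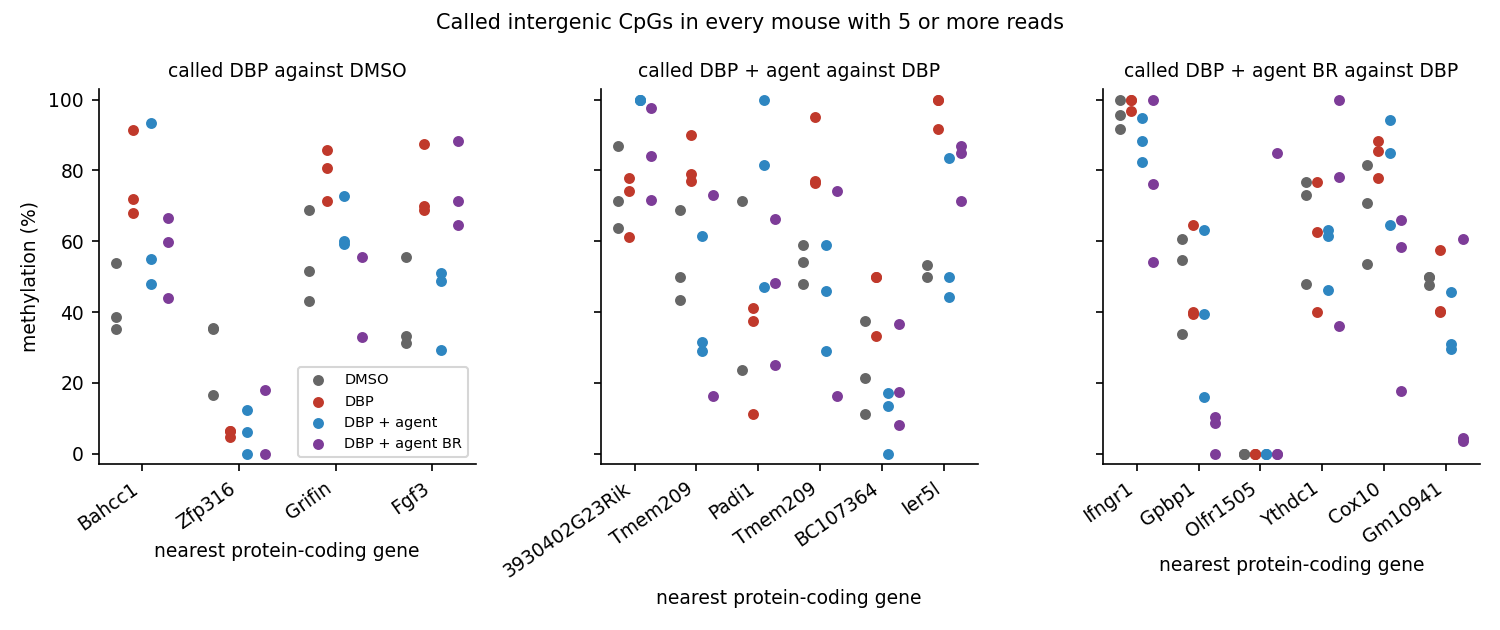
Methylation in percent of the called far intergenic CpGs (columns, by nearest protein-coding gene) in every mouse with at least 5 reads (points, coloured by group), for the 3 comparisons. The 3 DBP + agent mice sit at 100% near 3930402G23Rik, and near Olfr1505 a single DBP + agent BR mouse stands at 85.05% with all others at 0.0%.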

How the data were processed

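ERRBS libraries of 12 mice in 4 groups were grouped by the sample labels. The authors used Trim Galore 0.3.3 for trimming and Bismark 0.10.1 for alignment to mm9 and methylation calls. The deposited values were counts of methylated and unmethylated reads per CpG cytosine and strand, without normalization, and the percent of methylated reads that the authors also deposited was not used further. In the study's methods 6 libraries shared a lane and were amplified over 18 PCR cycles, so reads are not independent molecules and duplicates cannot be recognised in these counts. 

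Genes, starts and sequences came from GENCODE vM1 and the matching mm9 assembly. Promoters reached 1000 bp to both sides of a coding start. The members, gene lists and tests were chosen with earlier results of these data known. Counts under 5 reads on a strand were left out, and percentages are means over cytosines with equal weights unless stated. Two-sided exact permutation tests compared groups, and classes were compared within mice by exact sign-flip tests, with Benjamini-Hochberg adjustment. For single CpGs, cytosines under 10 reads or in the top 0.1% of coverage were dropped, depths were brought to the largest median among the samples, both strands were joined, and logistic regression (likelihood ratio test) was run over all CpGs with 6 samples covered. The regression was tested on simulated data with known changes, without scaling and without variation between mice of a group. That simulation cannot show how often such variation leads to calls. edgeR 4.0.16 in R 4.3.3 was the alternative, and the rest used Python 3.11.15, NumPy 2.4.6, pandas 2.3.3 and SciPy 1.17.1.

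Named CpGs were the called ones, up to the 6 with the smallest p-value per comparison. Named regions were the 4 with the most cytosines, the 3 lowest, 3 highest and 3 nearest 50% among those with 6 or more, the 3 deepest, members in imprinting control windows, and the member farthest from a gene. The 5 examples near transcription factors were chosen after their values were seen. The 3 gene lists were developmental transcription factors, secreted signalling ligands, and olfactory and vomeronasal receptors. Members in masked repeats were to be compared with the others, but the reference marks no repeats, so copies of 24-mers were used instead, a choice made after seeing the data. The alternatives changed the read minimum, upper filter, scaling, strands, test, size of difference, distance, weighting, replicate block and samples. The labels do not say whether the 3 samples of a group came from separate cages or days. Permutation, sign-flip and edgeR p-values measure the spread between these samples. Those of the logistic regression rest on scaled reads pooled within a group and leave that spread out.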

Additional observations from a re-analysis of the deposited data

How the results depend on the processing

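The mean levels and counts of calls depended on how cytosines were chosen and weighted. The difference of DBP minus DMSO in mean methylation turned to -2.0 points with summed reads (exact permutation p = 0.3) and to -2.54 with the cytosines each group covers (exact permutation p = 0.1). That of DBP + agent minus DBP turned to -3.86 with summed reads and -3.16 with summed reads outside the ribosomal interval, and to -0.00124 without DBP replicate 3 and -0.128 without DBP + agent replicate 1. That of DBP + agent BR minus DBP turned to 3.94 with each group's own cytosines. The standard deviation of the 4 group means passed the test at 2.62 points with summed reads (exact permutation p = 0.0286) and at 1.88 with each group's own cytosines (exact permutation p = 0.000649), where the groups are read at different loci. The distance contrast turned to 8.49 points with summed reads. The equal-depth intermediate share did not pass the test at 20 reads, with a standard deviation of 0.944 between group means (exact permutation p = 0.14), and without 1 mouse its exact permutation p was 0.000455 to 0.00325. Leaving out 1 mouse gave ranges of 0.145 to 0.7, -0.128 to 0.674 and -0.687 to -0.0845 points for the 3 differences.

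Called far intergenic CpGs numbered 4, 194 and 231 in the 3 comparisons, in the order used above. They became 8, 902 and 912 at a minimum of 5 reads, 1, 20 and 35 at 20 reads, 13, 1398 and 1932 over 10 points, 1, 94 and 165 without scaling, 0, 136 and 160 beyond 20000 bp, and 0, 1 and 0 in edgeR. Over all CpGs tested, the counts were 31 of 53618, 960 of 127381 and 1043 of 104443. At a minimum of 5 reads they were 23 of 126873, 3957 of 261621 and 3659 of 226138. At 20 reads they were 13 of 12671, 116 of 42015 and 144 of 31277. They were 57, 6778 and 9019 over 10 points, 14, 530 and 733 without scaling, and 0, 3 and 0 in edgeR. Leaving out 1 mouse gave 1 to 18, 267 to 468 and 398 to 521 far intergenic calls. Over all CpGs it gave 13 to 72, 1241 to 2238 and 1671 to 2289 calls. The first far intergenic count was 18 without DMSO replicate 1, 1 without DMSO replicate 2, and 2, 9 and 8 without DBP replicates 1, 2 and 3. The second rose by over 1.5 times without any mouse except DBP + agent replicate 3 (267), and the third without any of the 6, and the cause was not tested. Far fewer CpGs were tested at 20 reads, 2018, 5449 and 4035 of the members. In the other contrasts, 19 of 20 alternatives and 60 of 60 fits without 1 mouse kept the direction and the side of the threshold, the exception being the distance contrast.

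Replicate numbers were shared by the groups. Samples with the same number did not deviate together, with correlations of their deviations over the members between -0.0457 and 0.0167. With a replicate block the called CpGs numbered 6, 189 and 228, and the mean differences were 0.395, 0.326 and -0.362 points. The contrast of masked repeats was not run. Depth limits single CpGs most in DMSO and DBP, where the 4 CpGs called between them rested on 13 to 65 reads per mouse.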
